A study of Oryza sativa with 6 samples.

Results

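The cellulose synthase-like genes of the CSLD and CSLF families were examined in rice panicles, in the wild type and in plants overexpressing OsEXPA7, an alpha-expansin that loosens cell walls. The 10 loci were taken by identifier, as members of these families: OsCSLD1 to OsCSLD5, OsCSLF6, and 4 CSLF loci of a cluster on chromosome 7, out of 42189 loci in the deposited table. This choice was made with earlier results of these data known. Both groups were panicles of the cultivar Nipponbare, with no treatment beyond natural growth named in the labels, and each was represented by 3 libraries described as biological replicates. The labels give neither the promoter that drives OsEXPA7, nor the number of transgenic lines, nor the panicle stage, nor whether replicates came from separate plants. The p-values therefore measure only the spread between these libraries. Levels are TPM, a relative abundance per transcript length, and the division by length lets levels of different genes in a library be set side by side. The total is equal in every library, so each level is a share of that total. TPM keeps no read depth, so no counting interval can be given.

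Cellulose synthase-like proteins are membrane glycosyltransferases related to the cellulose synthases, and most build the backbones of non-cellulosic wall polysaccharides. CSLD proteins are the closest relatives of the cellulose synthases and are known for tip-growing cells such as root hairs and pollen tubes, and for walls laid down in dividing cells. CSLF proteins make mixed-linkage glucan, a glucose polymer typical of grasses that is abundant in the primary walls of growing tissue. OsCSLF6 is the main mixed-linkage glucan synthase of rice, and OsCSLD4 is known from narrow-leaf mutants.

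The table pairs no identifier with a name. The names of OsCSLD1 to OsCSLD5 and of OsCSLF6 came with the choice of loci. Of these 6 names, 5 are listed in the reference gene table, and all 5 lie there on the chromosome that the rice identifier names. The reference also places 5 CSLF genes on chromosome 7 but pairs none of them with these identifiers, so the 4 cluster loci are called by their identifiers. Names of loci outside the 10, OsEXPA7 included, were paired with identifiers from general knowledge.

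The labels were checked first. LOC_Os03g60720, paired with OsEXPA7, measured 964, 959 and 882 TPM in wild type and 5077, 4323 and 4946 TPM with overexpression. Libraries of the same genotype correlated at 0.991 to 0.993 across tested loci and libraries of different genotypes at 0.948 to 0.953. No library stood apart as a whole, but replicate 3 of both genotypes did so at OsCSLF6, whose results are given with and without it. The 9 loci listed as markers of the tapetum and the pollen wall were present in every library, at 7.86 to 1568 TPM. The genotypes differed widely: of 23395 tested loci 25.3% were higher and 17.5% lower with overexpression, 42.8% in all (limma, Benjamini-Hochberg adjusted p under 0.05 over all tested loci). A locus past this threshold is termed called. Of the calls, 59.1% were higher on the deposited scale, whereas scaling by median of ratios gave 50.7% and quantile normalization 45.7%. Counts among the CSLD and CSLF loci have to be read against these shares. A panicle holds many cell types, and in such bulk RNA fewer cells of a type and less RNA per cell cannot be told apart.

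Of the 10 loci, 6 reached 1 TPM in at least 3 libraries and were tested. OsCSLD2 and OsCSLD4 rose, OsCSLD1 and LOC_Os07g36630 fell, while OsCSLF6 and LOC_Os07g36610 were not called. The groups did not overlap at 4 of the 6 tested loci, near the 53.7% of all tested loci without overlap, and 1 of the 4, OsCSLD1, passed the filter only through wild type. The median log2 change of the 6 tested loci was 0.20, beside 0.06 over all tested loci. The other 4 loci stayed between 0.00887 and 0.430 TPM in every library.

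**Figure D1:**
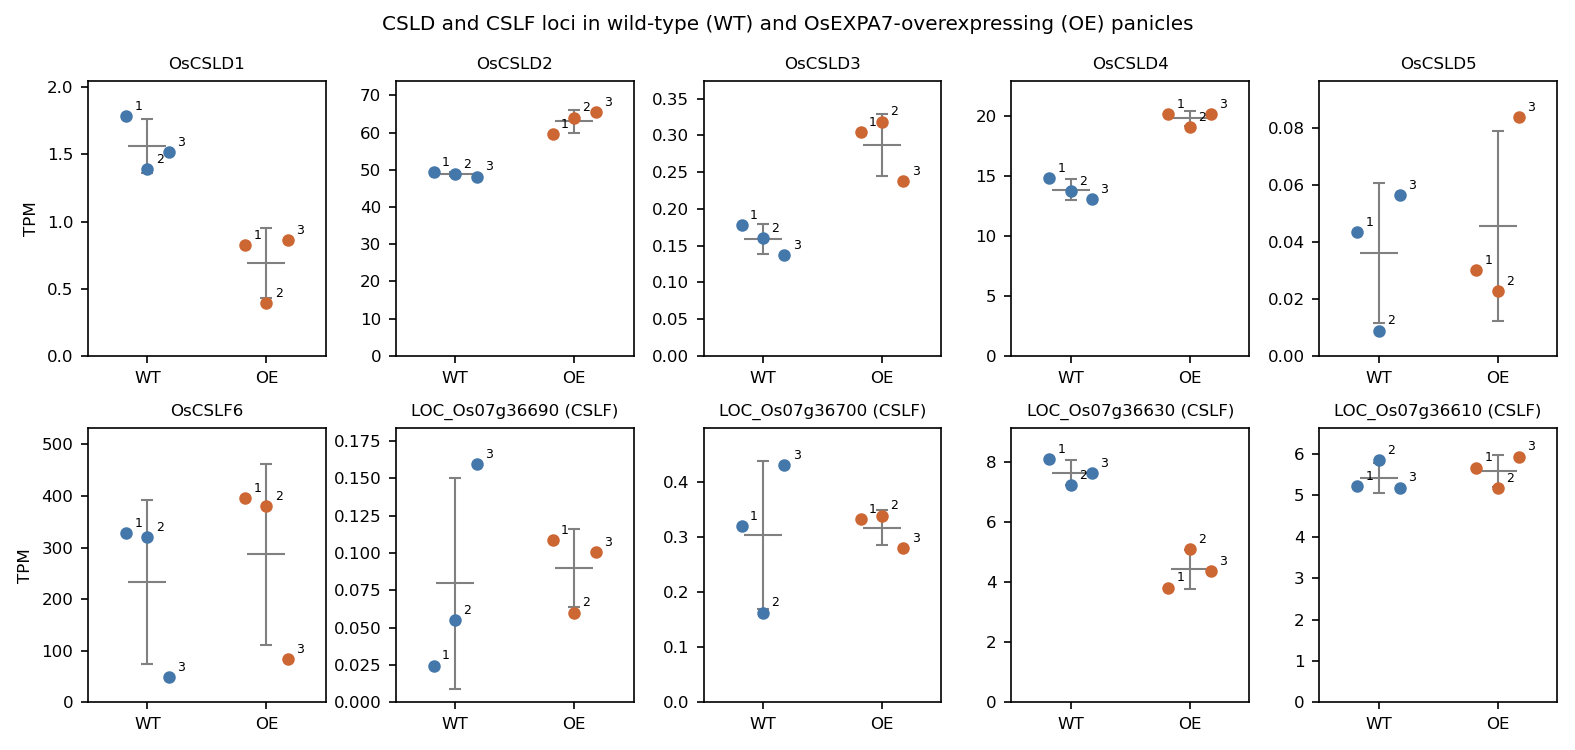
Levels of the 10 loci in TPM (vertical axes, linear, from 0) in each of 3 wild-type (WT) and 3 overexpression (OE) libraries; points are libraries with their replicate numbers, horizontal lines are means and bars are 1 SD. OsCSLD2 and OsCSLD4 lie higher in all OE libraries, OsCSLD1 and LOC_Os07g36630 lower, and at OsCSLF6 replicate 3 lies far below the others in both groups.

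Among the CSLD genes, OsCSLD2 was the most abundant. It measured 49.3, 48.9 and 48.2 TPM in wild type and 59.6, 64.0 and 65.5 TPM with overexpression. Each overexpression library thus lay above each wild-type library. The mean went from 48.8 ± 0.578 to 63.1 ± 3.08 TPM (SD, n = 3), a ratio of 1.29, and limma gave a log2 change of 0.36 ± 0.06 (SE; adjusted p = 0.00094).

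OsCSLD4, the second CSLD gene by level, rose as well. Its libraries measured 14.8, 13.7 and 13.1 TPM in wild type and 20.1, 19.1 and 20.2 TPM with overexpression, and the groups lay well apart. The mean rose from 13.9 ± 0.858 to 19.8 ± 0.631 TPM (SD, n = 3), a ratio of 1.43, and limma gave a log2 change of 0.49 ± 0.07 (SE; adjusted p = 0.000892). Neither rise was among the largest of this comparison: 69.1% of all tested loci had a smaller absolute log2 change than OsCSLD2, and 79.6% a smaller one than OsCSLD4.

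OsCSLD1, known in rice for root hairs, was low in the panicle. It measured 1.79, 1.39 and 1.51 TPM in wild type and 0.824, 0.392 and 0.859 TPM with overexpression, with no overlap. The wild-type mean was 2.26 times the overexpression mean, and limma gave a log2 change of -0.61 ± 0.15 (SE; adjusted p = 0.0112). OsCSLD1 passed the filter only through its wild-type libraries, all of which exceeded 1 TPM while no overexpression library did, so a difference was built into its being tested. At such levels the log2(TPM + 1) scale also understates the fold, and with a pseudocount of 0.1 TPM the log2 change was -1.13 (limma adjusted p = 0.0163).

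OsCSLD3 and OsCSLD5 were close to 0 and were not tested. OsCSLD3 measured 0.178, 0.161 and 0.137 TPM in wild type and 0.304, 0.319 and 0.238 TPM with overexpression, so its groups did not overlap. OsCSLD5 measured 0.0434, 0.00887 and 0.0564 TPM in wild type and 0.0301, 0.0229 and 0.0839 TPM with overexpression, with full overlap. With no filter on low values, limma gave log2 changes of 0.15 ± 0.05 (SE; adjusted p = 0.058) for OsCSLD3 and 0.01 ± 0.04 (SE; adjusted p = 0.857) for OsCSLD5.

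The 5 CSLD loci together summed to 66.1, 64.2 and 63.0 TPM in wild type and to 80.9, 83.8 and 86.9 TPM with overexpression, with no overlap and a difference of means of 19.4 TPM. OsCSLD2 and OsCSLD4 made up nearly all of it. OsCSLD2 held 75.8% ± 1.03 of the sum in wild type and 75.2% ± 1.37 with overexpression, and OsCSLD4 held 21.5% ± 0.799 and 23.6% ± 1.13 (SD, n = 3). The ratio of OsCSLD4 to OsCSLD2 within a library, which no single factor per library can move, was 0.284 ± 0.014 in wild type and 0.314 ± 0.021 with overexpression (SD, n = 3). These ratios overlapped between the groups (exact permutation test on log2 ratios, two-sided, p = 0.2, 0.3 after adjustment over 3 ratios). With 3 libraries against 3 this test cannot go below 0.1.

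OsCSLF6 was the most abundant of the 10 loci and also the most uneven. It measured 328, 321 and 49.5 TPM in wild type and 396, 381 and 84.4 TPM with overexpression. Replicate 3 lay far below the other libraries in both groups: the mean of replicates 1 and 2 was 6.55 times replicate 3 in wild type and 4.60 times with overexpression. No other locus of the 10 above 1 TPM showed such a gap.

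The spread at OsCSLF6 exceeded the difference between the genotype means. Its within-group SD was 1.42 on the log2(TPM + 1) scale, the 6th widest of the 23395 tested loci, whose median was 0.11. Over all 6 libraries the means were 233 ± 159 TPM in wild type and 287 ± 176 TPM with overexpression (SD, n = 3), and limma gave a log2 change of 0.42 ± 0.78 (SE; adjusted p = 0.687). Leaving out 1 library moved the log2 change between -0.47, without wild-type replicate 3, and 1.15, without overexpression replicate 3, and it passed the threshold in none of these 6 fits (limma adjusted p of 0.236 or more). With replicates 1 and 2 alone, a choice made after the values were seen, OsCSLF6 was higher with overexpression, at 388 ± 10.4 against 324 ± 5.32 TPM (SD, n = 2). The log2 change was then 0.26 (limma adjusted p = 0.00935). The libraries numbered 3 measured 84.4 TPM with overexpression and 49.5 TPM in wild type. A fit with a term for replicate number (replicate block) passed the threshold, at a log2 change of 0.42 (limma adjusted p = 0.0101). The labels name no pairing, and over all tested loci deviations of same-numbered libraries correlated at 0.097, -0.0988 and -0.0685. The numbers were therefore not taken to pair the libraries, and the fit without the block is the main one. Of the leave-one-out fits, only the one without wild-type replicate 3, which sets 2 high wild-type libraries against all 3 overexpression libraries, turned the direction. The fit without overexpression replicate 3, with the largest rise, is unbalanced in the opposite way.

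Values that were low in replicate 3 of both groups were rare in the table. Of all tested loci, 3 lay at least 2-fold below both other libraries in replicate 3 of both groups on the log2(TPM + 1) scale, OsCSLF6 among them, and 1 lay at least 2-fold above. The corresponding counts were 2 below and 2 above for replicate 1, and 1 below and 2 above for replicate 2. Wide gaps within a group were likewise uncommon: among 9922 loci averaging 20 TPM or more, 9 differed 3-fold or more between libraries of the same genotype in both genotypes, and OsCSLF6 was one of these. The sources used here do not state how reads were assigned to transcripts, and the part of that step in the low values was not tested.

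The loci whose pattern over the 6 libraries was most like that of OsCSLF6 had the same low replicate 3. LOC_Os11g07020 (Pearson r = 0.997 over 6 libraries, log2 scale) measured 97.5, 94.8 and 34.9 TPM in wild type and 100.2, 97.8 and 49.0 TPM with overexpression. LOC_Os09g24990 (r = 0.996) measured 54.3, 52.3 and 19.6 TPM in wild type and 64.5, 59.5 and 23.9 TPM with overexpression. LOC_Os06g08090 (r = 0.991) measured 146, 139.8 and 81.0 TPM in wild type and 142, 157 and 95.3 TPM with overexpression. These correlations describe 6 libraries and rest on replicate 3. The gaps were narrower than at OsCSLF6: the mean of replicates 1 and 2 was between 1.57 and 2.76 times replicate 3.

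**Figure D2:**
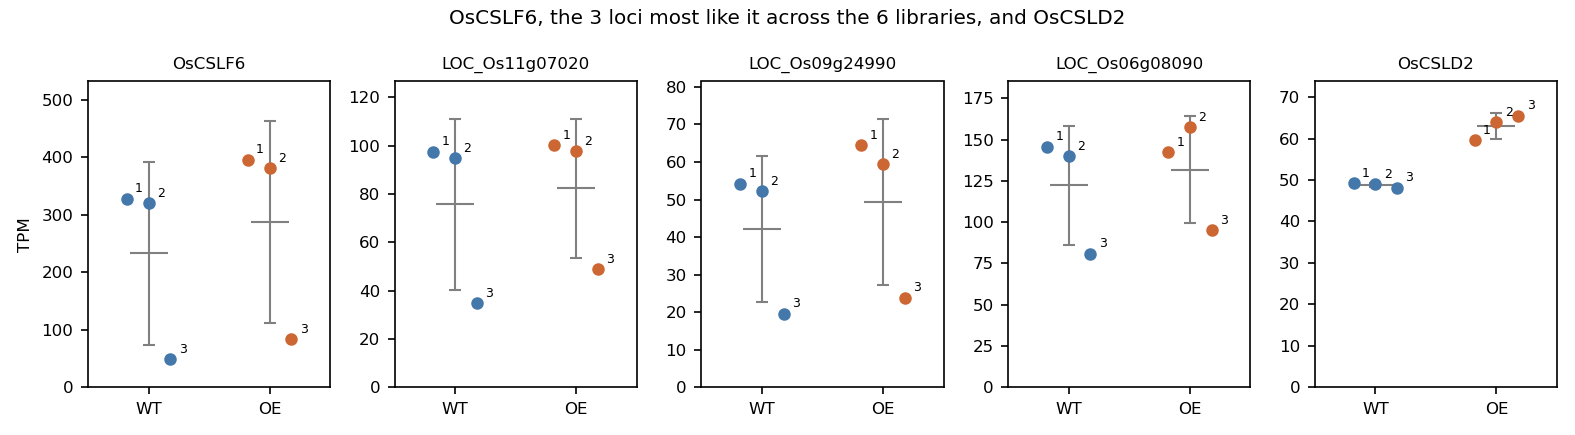
Levels in TPM (vertical axes, linear, from 0) of OsCSLF6, of the 3 loci most like it over the 6 libraries and of OsCSLD2, in each WT and OE library; points carry replicate numbers, lines are means and bars 1 SD. Replicate 3 is lowest in both groups at OsCSLF6 and the 3 loci like it, whereas OsCSLD2 in replicate 3 lies beside the other libraries of its group.

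The 3 loci most like OsCSLD4 were picked by correlation over the same 6 libraries, so that their higher level with overexpression was fixed by that choice. LOC_Os12g23700 (r = 0.9996 over 6 libraries) went from 6.46 ± 0.514 to 10.6 ± 0.414 TPM, ChrSy.fgenesh.gene.86 (r = 0.9996) from 2.17 ± 0.562 to 8.18 ± 1.05 TPM, and LOC_Os01g54600 (r = 0.999) from 9.34 ± 1.05 to 20.8 ± 1.64 TPM (SD, n = 3). Among the CSLD and CSLF loci themselves, OsCSLD2 and OsCSLD4 correlated at r = 0.955 over the 6 libraries, a description only. Both were called higher with overexpression, so a high r was largely fixed by the difference between genotypes. Within groups, the libraries had the same order at both loci in wild type but not with overexpression.

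Of the 4 chosen loci of the chromosome 7 CSLF cluster, 2 were above 1 TPM, of which 1 fell and 1 was not called. LOC_Os07g36630 fell: it measured 8.08, 7.23 and 7.62 TPM in wild type and 3.82, 5.09 and 4.37 TPM with overexpression. Every overexpression library lay below every wild-type library. The mean went from 7.65 ± 0.425 to 4.43 ± 0.639 TPM (SD, n = 3), so that wild type was 1.73 times as high, and limma gave a log2 change of -0.68 ± 0.11 (SE; adjusted p = 0.00125). Of all tested loci 88.9% had a smaller absolute log2 change.

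LOC_Os07g36610 did not pass the threshold. It measured 5.23, 5.85 and 5.19 TPM in wild type and 5.68, 5.18 and 5.94 TPM with overexpression, and the groups overlapped. Limma gave a log2 change of 0.04 ± 0.10 (SE; adjusted p = 0.774), whose sign turned with median-of-ratios scaling, to -0.0095, and with quantile normalization, to -0.023.

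The order of the 2 cluster loci by mean was therefore reversed between the genotypes. In overexpression replicate 2 they were nearly equal, LOC_Os07g36630 at 5.09 and LOC_Os07g36610 at 5.18 TPM. The ratio of LOC_Os07g36630 to LOC_Os07g36610 was 1.54, 1.24 and 1.47 in the wild-type libraries and 0.673, 0.983 and 0.736 in the overexpression libraries. All ratios were above 1 in wild type and below 1 with overexpression, and a single scaling factor per library cannot move them. The exact permutation test on log2 ratios gave a two-sided p of 0.1, the smallest that 3 libraries against 3 allow, and 0.3 after adjustment over 3 ratios. LOC_Os07g36630 held 56.8% ± 2.39 of the summed TPM of the 4 cluster loci in wild type and 42.4% ± 4.81 with overexpression (SD, n = 3). Related copies lie side by side in this cluster, and how reads shared by several of them were split is not stated, so their values are uncertain.

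The other 2 cluster loci were near 0. LOC_Os07g36700 measured 0.319, 0.163 and 0.430 TPM in wild type and 0.332, 0.338 and 0.2796 TPM with overexpression. LOC_Os07g36690 measured 0.0247, 0.0548 and 0.159 TPM in wild type and 0.109, 0.0601 and 0.101 TPM with overexpression. Both overlapped between the groups. With no filter their log2 changes were both 0.02, with SE of 0.08 and 0.06 and limma adjusted p of 0.89 and 0.873. A further locus of the same stretch, LOC_Os07g36740, listed as CSLF4 and not among the 10, measured 0.896, 0.680 and 0.822 TPM in wild type and 1.25, 0.940 and 1.37 TPM with overexpression. Its groups did not overlap, but only 2 libraries reached 1 TPM and it was not tested.

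**Figure D3:**
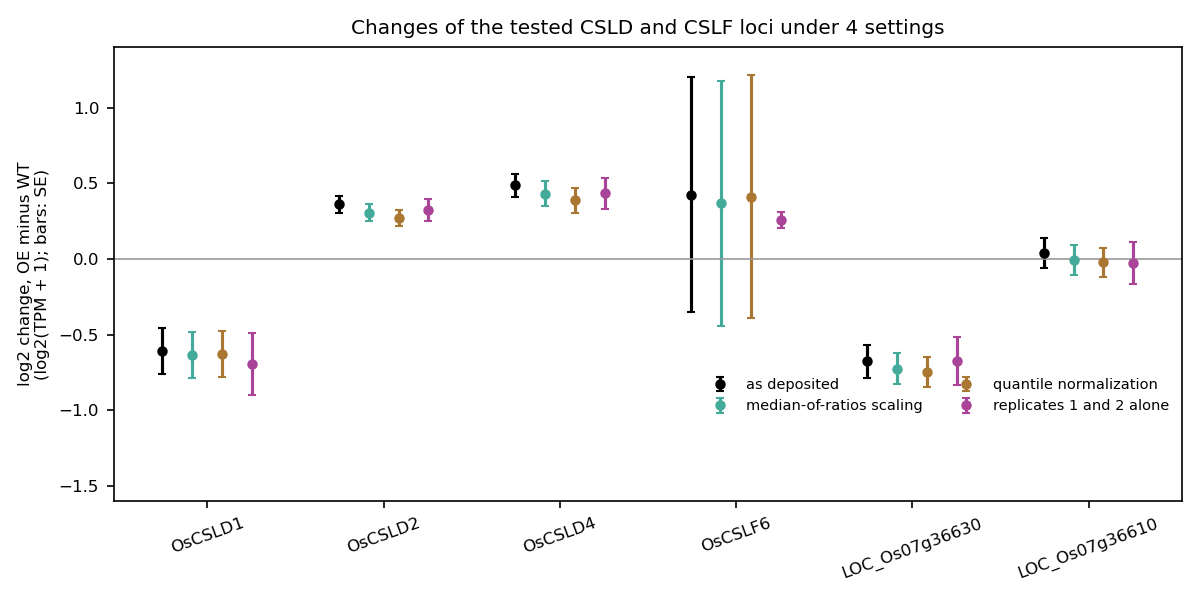
Log2 change (OE minus WT, log2(TPM + 1) scale, vertical axis) of the 6 tested loci under 4 settings, with SE as bars. OsCSLD1, OsCSLD2, OsCSLD4 and LOC_Os07g36630 keep their directions under all 4, and LOC_Os07g36610 stays near 0. All 4 settings share the filter that OsCSLD1 passed only through wild type, so its direction was built in. The wide bars of OsCSLF6 narrow when replicate 3 is left out of both groups.

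Among the 27 table rows from LOC_Os07g36500 to LOC_Os07g36850, 6 were listed at 0 in all libraries and 10 were tested. Of the 10, 4 were called higher, 5 were not called and 1, LOC_Os07g36630, was called lower. Over all tested loci 25.3% were higher and 17.5% lower. Of the 4 called higher, 1 passed the filter only through its overexpression libraries, at 0.827, 0.942 and 0.910 TPM in wild type. The row next to LOC_Os07g36610 in number, LOC_Os07g36600, named here after its values were seen, went from 20.5, 19.9 and 25.3 TPM in wild type to 46.6, 41.1 and 48.7 TPM with overexpression.

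The order of levels was nearly the same in both genotypes. From high to low, the wild-type means ran from OsCSLF6 through OsCSLD2, OsCSLD4, LOC_Os07g36630, LOC_Os07g36610 and OsCSLD1 to the 4 loci below 1 TPM. Ranges over libraries did not overlap between neighbours in this order down to LOC_Os07g36700, although OsCSLF6 in wild-type replicate 3, at 49.5 TPM, lay just above the highest OsCSLD2 value of wild type, 49.3 TPM. The 4 lowest loci each overlapped with the next in wild type, and their order is not resolved. With overexpression LOC_Os07g36610 and LOC_Os07g36630 changed places. OsCSLF6 ranked 613th among all loci by wild-type mean and 452nd with overexpression, OsCSLD2 4156th and 3310th, and OsCSLD4 12112th and 10205th. OsCSLF6 was not called, and its means had an SD of 159 TPM in wild type and 176 TPM with overexpression.

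Relatives that also make wall glucans were compared from lists paired by general knowledge. Of the 30 names in these lists of other CSL and cellulose synthase genes, 24 are in the reference gene table. All 24 are found there on the chromosome that the identifier names, but CSLA9 (LOC_Os06g42020) is listed on chromosome 2 as well as 6. CSLH proteins can also make mixed-linkage glucan. LOC_Os10g20090, listed as CSLH1, measured 60.5, 58.2 and 59.0 TPM in wild type and 55.6, 58.5 and 58.5 TPM with overexpression, with overlapping groups and an adjusted p of 0.553 by limma. It was the only one of the 6 listed other CSLF and CSLH loci above 2 TPM, and neither of the 2 that were tested passed the threshold. LOC_Os04g35020 (CSLH2), tested only through its wild-type libraries, measured 1.33, 1.26 and 1.09 TPM there. With overexpression it measured 0.804, 0.876 and 0.752 TPM, without overlap (limma adjusted p = 0.0774). LOC_Os10g20260 (CSLF7), not tested, was also lower without overlap. It measured 0.405, 0.444 and 0.553 TPM in wild type and 0.151, 0.151 and 0.0715 TPM with overexpression.

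Among 9 loci listed as cellulose synthases (CESA), which make cellulose, 4 were lower, 1 was higher and 4 were not called, beside 17.5% lower and 25.3% higher over all tested loci. The 3 listed for secondary walls all fell, and their summed TPM was 242 ± 7.07 in wild type and 150.1 ± 1.53 with overexpression (SD, n = 3). Of the 6 listed for primary walls, LOC_Os07g14850 (CESA6) rose, with a log2 change of 0.45, and LOC_Os07g10770 (CESA8) fell, with a log2 change of -0.28 (limma adjusted p = 0.00343 and 0.00181). At LOC_Os07g24190 (CESA3) wild-type replicate 3 stood apart, at 63.8 TPM against 200.5 and 200.5 TPM. The overexpression libraries measured 52.6, 81.6 and 68.4 TPM, so that, unlike at OsCSLF6, replicate 3 was not the lowest of that group.

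Families that make other backbones were read against the same shares, 25.3% higher and 17.5% lower. Of 9 CSLA loci, whose products are mannan synthases, 3 rose, 1 fell and 5 were not called, which is near those shares. Of 6 CSLC loci, listed as xyloglucan backbone synthases, 5 were tested, 3 rose and 2 were not called. The largest CSLC change was at LOC_Os03g56060 (CSLC9), from 51.1 ± 3.28 to 92.8 ± 3.32 TPM (SD, n = 3). The median log2 change was 0.16 for CSLA, 0.42 for CSLC, -0.28 for CESA and 0.06 for all tested loci.

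The lists of cell markers were chosen with earlier results of these data known, so their counts are a description only. Of 5 loci listed as mitotic cyclins and B-type cyclin-dependent kinases, 4 rose and 1 was not called, and none of the 5 was at 0; over all tested loci 25.3% were higher. Their summed TPM was between 107 and 116 in the wild-type libraries and between 170.5 and 172 in the overexpression libraries, 1.53 times as high by mean. LOC_Os01g59120 (CYCB1;1) rose from 22.0 ± 1.28 to 39.5 ± 1.47 TPM (SD, n = 3). Among the 9 tapetum and pollen wall loci 5 were lower, 1 was higher and 3 were not called, beside 17.5% lower and 25.3% higher over all tested loci. None was at 0, and their sum went from between 3427 and 3498 TPM to between 1932 and 2037 TPM. Most of that fall lay in LOC_Os11g37280 (C6, a lipid transfer protein gene), at 1520 ± 49.1 TPM in wild type and 261 ± 4.43 TPM with overexpression (SD, n = 3). The part of cell mix or panicle stage in the CSLD and CSLF changes was not tested.

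**Figure D4:**
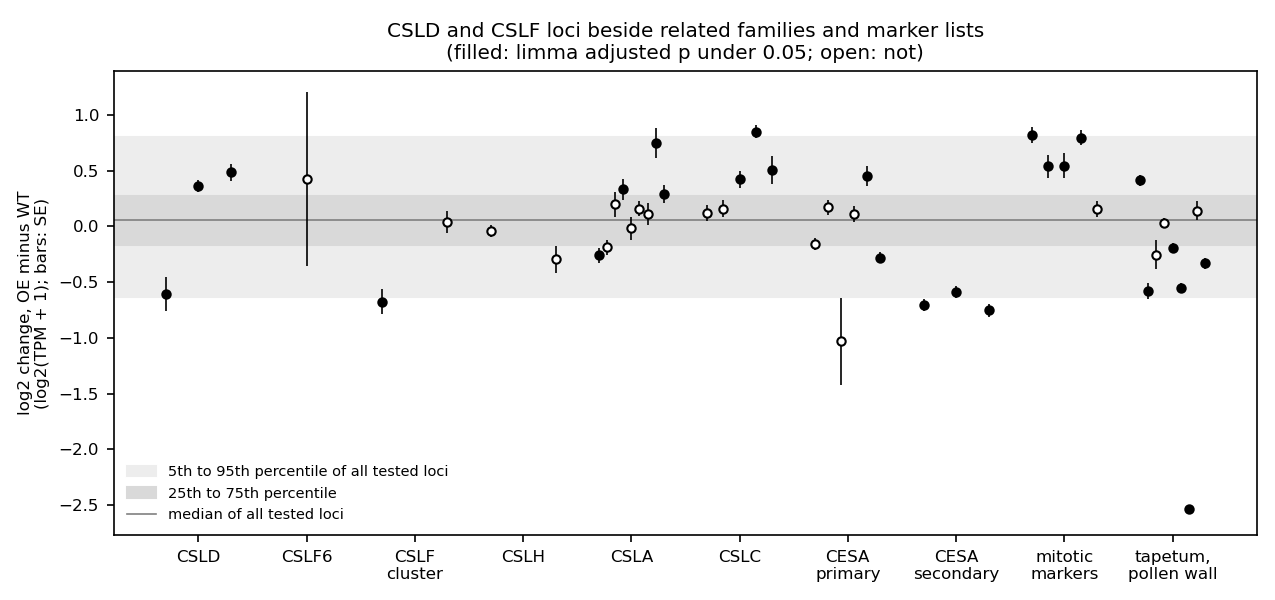
Log2 change (OE minus WT, log2(TPM + 1) scale, vertical axis; bars SE) of each tested locus of the CSLD and CSLF groups, of related families and of 2 marker lists; filled points passed limma's adjusted p under 0.05 and grey bands span percentiles of all tested loci. OsCSLD2 and OsCSLD4 lie at 0.36 and 0.49, the 3 secondary-wall CESA loci between -0.75 and -0.59, and 4 of 5 mitotic markers between 0.54 and 0.82.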

How the data were processed

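RNA from panicles was sequenced as messenger RNA libraries for Illumina, per the labels' protocols. The authors deposited TPM, with an equal total per library. The sources used here do not state the aligner, quantifier or annotation. Although the identifiers are of the rice form, GRCm38 and mm10 (mouse) are the builds in the submitters' processing notes, and no coordinates are printed. Libraries were grouped by title, 3 wild type and 3 overexpression. The 10 members and all comparison lists were chosen with earlier results of these data known.

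Values were analysed as log2(TPM + 1) where 3 or more of the 6 libraries reached 1 TPM. The test of genotype used limma 3.58.1 and R 4.3.3 (variance trend, two-sided, Benjamini-Hochberg over all tested loci, threshold 0.05), and the fit was tested on simulated data. Ratios used exact permutation tests (SciPy 1.17.1). All 10 members are named. Other loci were named by list membership, at 5 TPM or more and past the threshold, or by highest Pearson r with OsCSLD4 or OsCSLF6. The listed loci CSLH1, CSLH2, CSLF4, CSLF7 and CESA3 were named without being called, and other exceptions are identified. Alternatives were another pseudocount, other filters, median-of-ratios and quantile scaling, other variance models, a replicate block and leaving out libraries.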

Additional observations from a re-analysis of the deposited data

How the results depend on the processing

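The calls of OsCSLD2, OsCSLD4 and LOC_Os07g36630 kept their direction and their side of the threshold under each of 15 alternatives, their log2 changes being 0.27 to 0.40, 0.39 to 0.53 and -0.78 to -0.59. OsCSLD1 did so under the 14 that tested it, at -1.13 to -0.47. Apart from the fit with no filter, these kept the main filter, which OsCSLD1 passed only through wild type. With a filter at 5 TPM OsCSLD1 was no longer tested, so 1 member fell instead of 2. OsCSLF6 turned to -0.47 without wild-type replicate 3 (limma adjusted p = 0.547), was 1.15 at most, without overexpression replicate 3, and passed with replicates 1 and 2 alone, at 0.26, an alternative added after the values were seen. LOC_Os07g36610 turned to -0.0095 with median-of-ratios scaling, -0.023 with quantile normalization and -0.025 with replicates 1 and 2 alone. Deviations of same-numbered libraries correlated at 0.097, -0.0988 and -0.0685, so the replicate numbers were not taken to pair the libraries. With the replicate block 3 members rose instead of 2, OsCSLF6 being added at a log2 change of 0.42 (limma adjusted p = 0.0101). The summed CSLD TPM was higher with overexpression by 19.4 as deposited, by 16.4 with median-of-ratios scaling and by 14.6 with quantile normalization. Both scalings thus narrowed the difference at this sum. The summed CSLF TPM differed by 51.2, and by -40.5 to 152 when 1 library was left out. All tested loci past the threshold numbered 7806 to 10181 against 10002. The higher share of these calls was 59.1%, and scaling by median of ratios or by quantiles brought it to 50.7% or 45.7%. Depth is unknown, which limits statements on the 4 loci under 1 TPM.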
